A study of Mus musculus with 16 samples.

Results

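C>T and G>A changes are the exchanges of cytosine for thymine and of guanine for adenine at single positions of the mouse mitochondrial genome, and were taken as all 3976 reference cytosines read as thymine and all 2013 reference guanines read as adenine. These 5989 alleles were 12.2% of the 48897 possible single-base alleles over 16299 positions. Every allele has a row in the deposited counts, so that no level of the change itself entered the choice. The samples were ATAC-seq libraries, in which the Tn5 transposase cuts and tags accessible DNA, mitochondrial DNA among it, of cells sorted from femurs of mice aged 3 months with the D257A allele on both copies of PolG. There were 8 sorted subsets with 2 libraries each (replicates 1 and 2), named in the labels Thy, 6C3, Thy_6C3, CD105, CD24, CD24_CD29, CD29 and CD45. All 16 libraries share the PolG genotype, age and bone, so the changes are described within mutant mice, and a comparison with wild-type mice was not analysed here. The labels give neither the sort gates nor the mice behind each library, and mitochondrial counts cannot test the surface markers that name the subsets. The p-values below therefore speak only of how much these libraries varied, and that variation may be technical.

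PolG is the polymerase that copies mitochondrial DNA, and the D257A change disables its proofreading exonuclease, so that copying errors stay in the new strand. The mitochondrial genome is a circle whose strands differ in base content. The deposited reference is the cytosine-rich light strand, and a G>A change on it is a C>T change on the complementary heavy strand. Synthesis of the strands starts at different places, at an origin in the noncoding control region and at the light-strand origin inside a cluster of tRNA genes. These origins part the genome into a long and a short stretch, the major and the minor arc. The ratio of C>T to G>A thus compares the same chemical change on either strand, and the bases around the site show in which sequence it was read.

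Mean coverage was 6569 to 77252 reads per position in the 16 libraries, lowest in the CD24_CD29 libraries, and the lowest coverage at any position was 2391. With 0 counts, a fraction of up to 0.0457% could be missed at the lowest mean coverage and 0.00388% at the highest (3 counts). These limits, and the intervals given later, cover counting error alone, because the labels name no molecular identifiers. Levels are means of the fraction over sites, in units per 10000 reads, and they hold sequencing errors as well as mutations. Thy replicate 2 stood apart in other changes. Its A>C level was 76.5 per 10000, against 8.75 to 14.2 in the other 15 libraries, while its C>T level of 14.1 lay beside their highest, 13.9. Allele fractions of libraries with the same replicate number deviated together. Tests over 16 libraries count each library once, although same-numbered libraries shared alleles, so their p-values may be too small. Both numbers are given for tested results whose means differed between them in direction or by more than 1.5 times.

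The surroundings of 9 alleles are shown because these alleles carry much of the level at 1% or more and were named by rules of level and spread over libraries. Each run spans 31 bases of the GRCm38 mitochondrial sequence, with the changed cytosine in the middle. C>T alleles are on the reference strand and G>A alleles on the complementary strand, so that the changed base is a cytosine in each. Capitals mark the changed base, its neighbours, and the bases 4 positions before and 4 positions after it.
C11959T (MT:11944-11974, ND5): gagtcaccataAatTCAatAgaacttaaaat
C10658T (MT:10643-10673, ND4): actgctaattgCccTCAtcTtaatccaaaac
C1051T (MT:1036-1066, TrnV): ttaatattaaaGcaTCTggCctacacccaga
C7953T (MT:7938-7968, ATP8 and ATP6): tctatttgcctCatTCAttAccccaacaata
C7166T (MT:7151-7181, COX2): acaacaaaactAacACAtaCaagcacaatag
C14024T (MT:14009-14039, ND6): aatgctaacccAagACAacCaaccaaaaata
G3079A (MT:3064-3094, ND1): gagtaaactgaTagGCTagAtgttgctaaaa
G5840A (MT:5825-5855, COX1): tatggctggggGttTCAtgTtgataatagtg
G5171A (MT:5156-5186, between TrnN and TrnC): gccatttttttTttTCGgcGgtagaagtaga

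C>T was the higher of the complementary changes in each library. Its level was 12.6 ± 0.947 per 10000 (SD, n = 16), with a lowest library at 11.3, a median of 12.5 and a highest at 14.1. The G>A level was 8.57 ± 0.720 per 10000 (SD, n = 16), with 7.51, 8.58 and 9.94 as the lowest, median and highest. No G>A level reached any C>T level. The ratio of C>T to G>A was 1.36 to 1.59 with a median of 1.47, a mean log2 ratio of 0.55 ± 0.079 (SD) above 0 in 16 of 16 libraries (exact permutation test by sign flips, two-sided, p = 3.05e-05, the smallest it can give). The ratios of the numbers did not overlap: they were 1.48 to 1.59 in the 8 libraries of replicate 2, and 1.36 to 1.47 in the 8 of replicate 1. G3079A alone was at a mean of 0.331% in replicate 2 and 17.8% in replicate 1. Its part in that gap was not tested. With alleles under 1%, mean C>T and G>A levels were 9.32 and 7.21 per 10000 in replicate 2, and 9.69 and 7.24 in replicate 1. With the 16 combinations of neighbouring bases weighted equally, the mean log2 ratio was 0.60, so the ratio was no lower when the neighbouring bases of reference cytosines and guanines counted alike.

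**Figure D1:**
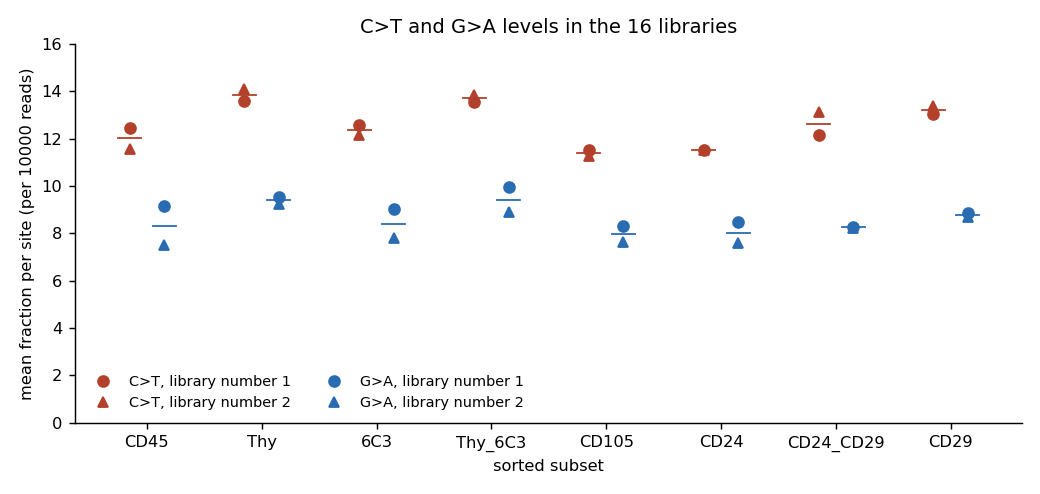
Mean C>T (red) and G>A (blue) fraction per site in reads per 10000 for each sorted subset, with replicate 1 as circles, replicate 2 as triangles and the subset mean as a line. The C>T points lie between 11.3 and 14.1 and the G>A points between 7.51 and 9.94, so that the colours do not overlap.

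Most sites were low. The middle site of a library held 4.73 C>T reads per 10000 in the median library (range 1.47 to 6.31) and 3.13 G>A reads per 10000 (range 1.21 to 4.08). Alleles at 1% or more gave a median of 22.4% of the C>T level (range 19.2% to 43.0%) and 16.5% of the G>A level (range 7.15% to 28.3%). C>T and G>A together were 8.49% to 9.997% of all non-reference reads (as summed fractions) in the 15 libraries other than Thy replicate 2, and 4.11% in that one. Among alleles at 1% or more they were 35.9% to 50.4% of the summed fraction in those 15 libraries, against 3.93% in Thy replicate 2. They were thus a larger share of the high fractions than of all non-reference reads in those 15.

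The strand ratio was then set beside that of the other 5 complementary pairs, each over sites of its own reference base. T>C over A>G, the other transition pair, had a ratio of 1.27 to 1.49. The transversion pairs were near or below 1: C>A over G>T 0.967 to 1.001, T>A over A>T 0.871 to 1.17, T>G over A>C 0.861 to 0.935 and C>G over G>C 0.590 to 0.934. The log2 ratio of C>T over G>A exceeded those of the 4 transversion pairs by 0.57, 0.60, 0.72 and 0.83 in that order, in 16 of 16 libraries each (exact permutation test, two-sided, adjusted p = 3.81e-05 over 5). It exceeded that of T>C over A>G by 0.10 ± 0.080 (SD, n = 16), in 15 of 16 libraries (adjusted exact permutation p = 0.000427), with 0.13 in replicate 2 and 0.06 in replicate 1, where it did not pass alone (adjusted exact permutation p = 0.0703). That last difference turned to -0.06 with alleles under 1% alone (adjusted exact permutation p = 0.00235) and to -0.04 for the share of sites at 0.1% or more (0.0576), so its direction depended on the high fractions.

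**Figure D2:**
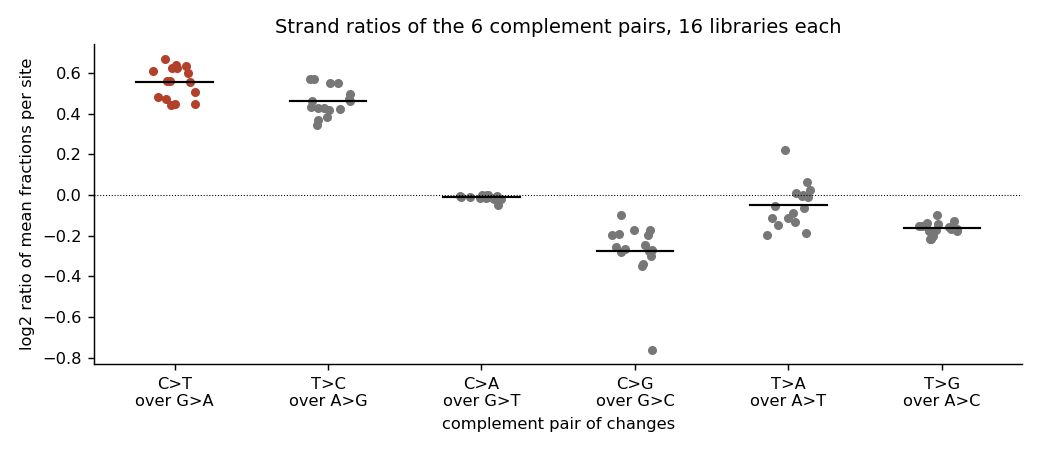
Log2 ratio of the mean fractions per site for each complementary pair of changes, with 1 point per library and the mean of 16 as a line. The C>T over G>A points (red) lie above 0.4, the T>C over A>G points above 0.3, and the means of the 4 transversion pairs at -0.01, -0.27, -0.05 and -0.16 from left to right.

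The strand ratio was also taken by the fraction of the allele. Alleles at 1% or more gave a C>T level of 2.41 to 5.63 per 10000 and a G>A level of 0.546 to 2.34, a mean log2 ratio of 1.29 ± 0.62 (SD, n = 16), above 0 in 16 of 16 libraries. The numbers did not overlap there, with log2 ratios of 1.32 to 2.27 in replicate 2 (mean 1.84) and 0.58 to 0.88 in replicate 1 (mean 0.74), so that the mean of 16 describes neither. Mean C>T and G>A levels of this bin were 3.30 and 0.995 per 10000 in replicate 2, and 2.86 and 1.71 in replicate 1. G3079A lies in this bin in replicate 1 alone, at 15.6% to 21.1%. Its part in the gap was not tested. Alleles from 0.1% to under 1% gave 6.25 to 9.07 per 10000 for C>T and 3.87 to 6.32 for G>A, a mean log2 ratio of 0.54 ± 0.11 (SD), again in 16 of 16 (adjusted exact permutation p = 4.58e-05 over 3 bins for both). Alleles under 0.1% gave 1.23 to 2.49 per 10000 for C>T and 1.18 to 2.79 for G>A. Their mean log2 ratio was -0.05 ± 0.085 (SD), below 0 in 12 of 16 libraries (adjusted exact permutation p = 0.0433), at -0.03 in replicate 2 and -0.06 in replicate 1. That call was lost with the replicate block, where the 2 libraries of a subset are averaged (p = 0.109, exact permutation). It held when CD24_CD29 replicate 1 or replicate 2 of CD45, Thy_6C3, CD24 or CD24_CD29 was left out, and was lost without any other single library, with mean log2 ratios of -0.058 to -0.037 over all 16 omissions. A strand difference was therefore present above 0.1%. The lowest bin cannot settle it below that limit, because each bin is averaged over all sites of the reference base. More C>T sites than G>A sites had left that bin, with 32.2% and 23.5% at 0.1% or more in the median library. The middle site, itself under 0.1%, had 4.73 per 10000 for C>T and 3.13 for G>A in the median library. The log2 ratio was higher in the middle than in the lowest bin in 16 of 16 libraries. From the middle to the highest bin it was higher by 0.88 to 1.84 in the 8 libraries of replicate 2, while in replicate 1 the step was -0.12 to 0.40 and below 0 in 6C3 and CD105. These steps were not tested.

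Levels differed more between neighbouring bases than between strands. For C>T, sites followed by guanine had 19.8 ± 2.80 per 10000 and sites followed by adenine 17.9 ± 1.39 (SD, n = 16), against 12.6 over all C>T sites. Sites followed by cytosine had 10.5 ± 0.831 and sites followed by thymine 6.83 ± 0.556. The log2 differences from all C>T sites were 0.64, 0.51, -0.26 and -0.88, each in the same direction in 16 of 16 libraries (adjusted exact permutation p = 4.07e-05 over 16, two-sided). Before the changed base, thymine went with a higher level, 16.5 ± 1.05 per 10000 (log2 0.39), and adenine, cytosine and guanine with lower ones, of 11.6, 10.9 and 10.3 (log2 -0.12, -0.21 and -0.29, adjusted p at most 6.98e-05 by the exact permutation test). Adenine before was at -0.06 in replicate 2 and -0.18 in replicate 1, and cytosine before at -0.28 and -0.13. The cytosine difference turned round to 0.0086 with alleles under 1%, where its mean was 9.57 per 10000, and to 0.013 for the share of sites at 0.1% or more, so its direction depended on the high fractions.

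G>A, read on the complementary strand, had the same order of signs after the base. Sites followed by guanine had 11.6 ± 1.57 per 10000 and by adenine 11.4 ± 0.809, against 8.57 over all G>A sites, while those followed by cytosine had 6.65 ± 0.717 and by thymine 6.52 ± 1.004 (SD, n = 16). These log2 differences of 0.43, 0.42, -0.37 and -0.41 held in 16 of 16 libraries each (adjusted exact permutation p = 4.07e-05). Guanine after was at 0.52 in replicate 2 and 0.34 in replicate 1, and thymine after at -0.55 and -0.27. Thymine before the base was again high (log2 0.23, in 15 of 16, with 0.37 in replicate 2 and 0.08 in replicate 1) and cytosine low (log2 -0.36, in 16 of 16; adjusted exact permutation p at most 6.98e-05). Adenine before (log2 -0.03, p = 0.172, with -0.06 in replicate 2 and 0.0023 in replicate 1) and guanine before (log2 -0.08, p = 0.229) did not pass the adjusted exact permutation test. Guanine before the base passed in opposite directions in the 2 numbers, at -0.31 in replicate 2 and 0.16 in replicate 1 (adjusted exact permutation p = 0.00893 for both), and at -0.08 with the replicate block (0.0167). G3079A, at 17.8% in replicate 1, is a site of that class and is also followed by thymine. With alleles under 1%, guanine before had 6.34 per 10000 and thymine after 5.12, against 7.22 over all G>A sites (means of 16). The part of G3079A in the gaps between the numbers was not tested.

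Read as triplets with the changed base in the middle, TCG was highest for both changes. C>T at the 86 TCG sites had 29.8 ± 5.42 per 10000 and was the highest of 16 triplets in 15 of 16 libraries, and the 389 ACT sites were lowest on average at 5.75 ± 0.382 (SD), a ratio of 5.18. G>A at 87 TCG sites had 16.2 ± 2.82 per 10000 and was highest in 14 of 16 libraries, and the 173 CCT sites were lowest at 4.11 ± 0.522, a ratio of 3.94. For C>A and G>T, which change the same reference bases, the highest triplet exceeded the lowest by 1.75 and 1.77 times only. With alleles under 1% the ratios of highest to lowest were 3.71 for C>T, 3.21 for G>A, 1.79 for C>A and 1.76 for G>T. C>T at TCG had 26.0 per 10000 in replicate 2 and 33.6 in replicate 1, and 19.0 over all 16 libraries with alleles under 1%. The triplet means of C>T and G>A ranked alike, with a Spearman rho of 0.835 over 16 triplets, or 0.915 with alleles under 1%, as a description of values that share libraries. Within a triplet C>T exceeded G>A in all 16 libraries for 12 of 16 triplets. The exceptions on average were ACT and GCT, where C>T was the higher in 6 and 7 libraries. At GCT, C>T was the higher in 7 of 8 libraries of replicate 2 and in 0 of 8 of replicate 1, where G>A was at 11.2 to 13.7 per 10000, and G3079A is a GCT site. When alleles under 1% were taken, ACT alone was lower for C>T on average (log2 -0.21, higher in 2 of 16), while GCT was at 0.04 (higher in 10 of 16).

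A CG dinucleotide is the same on both strands, so it compares the strands at one place. Over the 287 such dinucleotides, the cytosine of the reference strand changed at 19.8 ± 2.80 per 10000 (lowest 15.2, median 20.2, highest 24.6) and the cytosine of the complementary strand, seen as G>A, at 11.6 ± 1.57 (lowest 8.93, median 11.4, highest 14.0; SD, n = 16). The ratio was 1.70, with C>T above in 16 of 16 libraries. How this ratio differs from that over all sites was not tested. With alleles under 1% the mean levels at these dinucleotides were 15.9 per 10000 for C>T and 10.3 for G>A.

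Bases further away also went with the level, and the pair 4 positions before and 4 positions after stood out. These offsets were picked after the values at 8 positions on each side had been seen, so they are given with no test. C>T sites with guanine 4 before had 18.1 ± 1.82 per 10000, and those with cytosine 4 after had 19.2 ± 1.79, log2 differences of 0.52 and 0.61 from all C>T sites, above 0 in 16 of 16 libraries each. G>A sites with guanine 4 before had 11.4 ± 1.02 per 10000 and those with cytosine 4 after 11.7 ± 1.59 (log2 0.42 and 0.44), also in 16 of 16. Both bases together were found at 116 C>T sites, with 32.1 ± 6.50 per 10000, against 10.01 ± 0.852 at the 2646 sites with neither, a fold of 3.16. For G>A the 47 sites with both had 14.6 ± 2.31 per 10000, against 7.22 ± 0.787 at 1346 sites with neither, a fold of 2.01. Among the alleles printed above, C1051T has both bases, C7166T and C14024T have the cytosine, and G5840A has the guanine.

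The pattern did not rest on the few high alleles. With alleles under 1% alone, sites with both bases exceeded those with neither by 2.39-fold for C>T (18.5 against 7.73 per 10000) and by 2.31-fold for G>A (14.1 against 6.08), in 16 of 16 libraries each. Coverage at the 116 C>T sites was 0.963 times that of all reference cytosines. The other transitions, read with the changed base as thymine, showed a smaller fold of 1.63 for T>C and 1.65 for A>G with alleles under 1%, while C>A and G>T went the other way at 0.881 and 0.860.

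**Figure D3:**
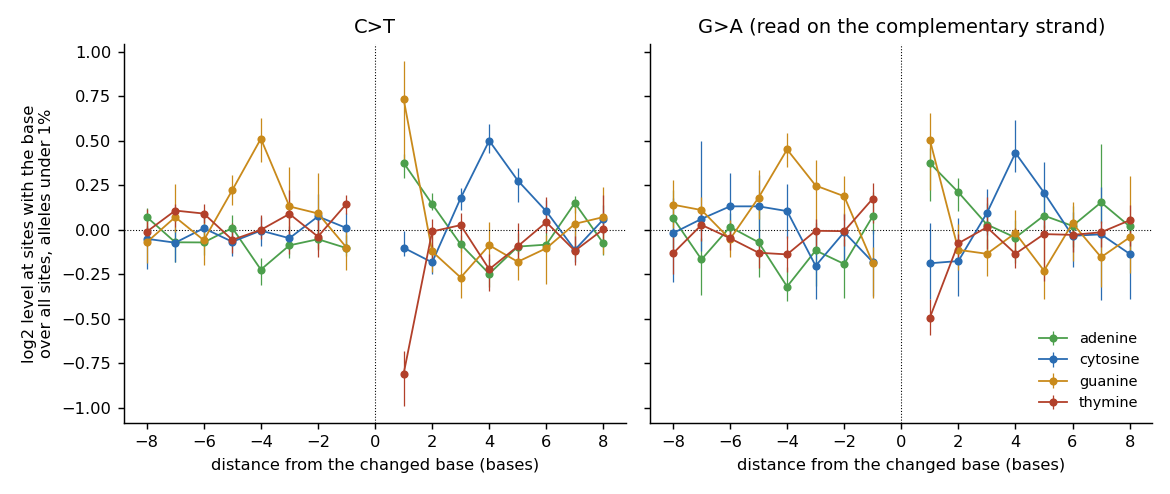
Log2 of the level at sites with a given base over the level of all sites, against distance from the changed base, for alleles under 1%. Points are means of 16 libraries and bars run from the lowest to the highest library. Guanine and adenine right after the changed base lie above 0 and thymine at -0.81 (C>T) and -0.50 (G>A), and guanine 4 before and cytosine 4 after form peaks of 0.43 to 0.51 in both panels.

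Of 3976 C>T alleles, 260 (6.54%) reached 1% with at least 5 reads in at least 1 library, and of 2013 G>A alleles 65 (3.23%) did, against 7.13% of all 48897 alleles. That background was made largely by other changes in Thy replicate 2. Leaving it out, 246 C>T (6.19%) and 63 G>A alleles (3.13%) were counted, against 2.31% of all alleles. In all 8 libraries of replicate 1, 16 C>T (0.402%) and 5 G>A alleles (0.248%) were counted, against 0.108% of all alleles, and in all 8 of replicate 2, 15 C>T (0.377%) and 3 G>A (0.149%), against 0.121%. The shares of C>T were above those of G>A under each of these rules. The shares of C>T were above that of all alleles in all but the first rule. Those of G>A were too, but in all 8 libraries of replicate 2 it rested on 3 alleles and lay near the share of all. The shares of the other transitions alone are not given here, so an excess is not shown to be particular to C>T and G>A.

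The counted alleles mostly differed between the replicate numbers. Of the C>T alleles counted in any library of a number, 17 were counted in both, 17.3% of the 98 of replicate 1 and 9.50% of the 179 of replicate 2. For G>A, 7 were counted in both, 26.9% of 26 and 15.2% of 46. Many of these were counted in a single library of their number, 64 and 147 for C>T and 18 and 40 for G>A. Of the widely found C>T alleles, counted in all 8 libraries, 16 were found in replicate 1, 15 in replicate 2 and 3 in both. For G>A these were 5, 3 and 0. The same overlap over all changes is not given here. By mean fraction, 18 C>T sites were at 1% or more in replicate 1 alone, 16 in replicate 2 alone and 5 in both, and the G>A sites were 6, 5 and 0. Below that limit the same sites tended to be high in both numbers, with a Spearman rho of 0.711 over 3937 C>T sites and 0.653 over 2002 G>A sites, as a description of sites that share base surroundings and libraries.

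C11959T, in ND5 (a subunit of respiratory complex I) at codon position 2, had the highest mean of all C>T and G>A alleles. It was at 18.4% to 24.9% in the 8 libraries of replicate 2 (median 23.1%), against 0.120% to 0.724% in those of replicate 1 (median 0.169%). C10658T, at codon position 3 of the complex I gene ND4, had the reverse pattern, at 0.375% to 1.02% in replicate 2 (median 0.583%), against 15.97% to 21.7% in replicate 1 (median 18.8%). C1051T, in the valine tRNA gene TrnV, was at 9.81% to 17.9% in replicate 2 (median 15.2%), against 0.0416% to 0.120% in replicate 1. Each of the 3 alleles was found in all 8 subsets of its high number, and the numbers did not overlap.

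Only 3 C>T alleles and 0 G>A alleles were counted in all 16 libraries. C7166T, at codon position 1 of COX2, a subunit of cytochrome oxidase, was at 5.53% to 7.92% in replicate 2 (median 6.23%) and 7.38% to 11.3% in replicate 1 (median 9.27%). C14024T, in ND6, the complex I gene that is coded on the other strand, was at 7.27% to 10.5% in replicate 2 (median 9.27%) and 3.74% to 7.49% in replicate 1 (median 5.11%). C7953T lies where ATP8 and ATP6, subunits of ATP synthase, overlap, and was at 1.05% to 2.51% in replicate 2 and 7.60% to 14.1% in replicate 1. Its numbers did not overlap, those of C14024T overlapped by CD24_CD29 replicate 1 alone, and those of C7166T in 7.38% to 7.92%.

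The highest G>A allele was G3079A, at codon position 2 of ND1 in complex I. It was at 0.154% to 0.702% in replicate 2 (median 0.276%), against 15.6% to 21.1% in replicate 1 (median 16.9%). G5840A, at codon position 3 of COX1, was at 2.95% to 4.71% in replicate 2, against 0.214% to 1.14% in replicate 1. G5171A lies in the gap of 32 bases between TrnN and TrnC that is taken here as the light-strand origin, and was at 0.480% to 1.07% in replicate 2, against 1.31% to 6.27% in replicate 1. Within replicate 1 it was highest in Thy_6C3 (6.27%) and CD29 (4.61%) and lowest in CD24 (1.31%). The remaining alleles among the 5 highest of a number had means of 6.66% to 7.74% (C3085T and C609T) for C>T in replicate 2 and 6.81% to 6.99% (C4093T and C4216T) in replicate 1. For G>A they had 1.05% to 3.21% (G11964A, G9526A, G272A and G328A) in replicate 2 and 2.21% to 3.84% (G5026A, G5988A and G9775A) in replicate 1, and each was under 0.7% on average in the other number.

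**Figure D4:**
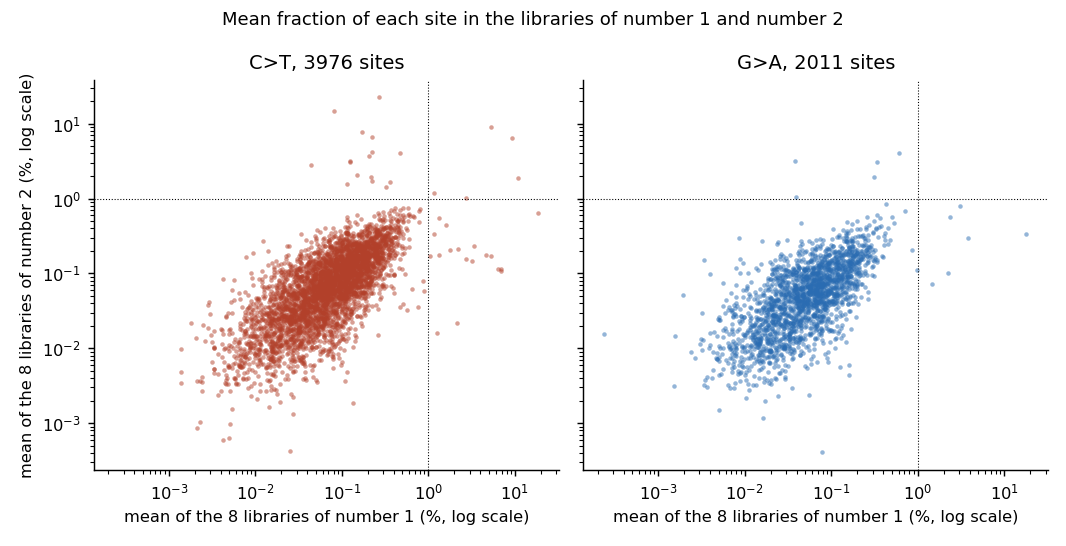
Mean fraction of each site over the 8 libraries of replicate 2 against that over the 8 of replicate 1, in percent on log axes, for 3976 C>T and 2011 G>A sites above 0 in both. Dotted lines mark 1%. The cloud under 1% runs along the diagonal, and the sites above it lie mostly along one axis or the other, with 5 C>T and 0 G>A sites above both lines.

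Other alleles were counted in only 1 library of a replicate number. Of the C>T alleles, 147 were counted in a single library of replicate 2 and 64 in a single library of replicate 1, and of G>A 40 and 18. CD24_CD29, which had the lowest coverage, held 67 of these C>T alleles in replicate 2 and 38 in replicate 1, and Thy_6C3 replicate 2 held 44. These libraries were also high over all changes, with 416, 280 and 266 counted alleles in that order, against 140.5 in the median library. Alleles of all changes counted in a single library are not given here, so the high numbers are not shown to be particular to C>T. The part of coverage in these counts was not tested. C14338T, in CYTB (cytochrome b), was at 9.09% (95% exact binomial interval 8.73% to 9.46%) in CD24_CD29 replicate 1 and at most 0.527% in any other library. C635T, in the small ribosomal RNA gene mt-Rnr1, was at 4.29% (3.70% to 4.94%) in CD24_CD29 replicate 2 and at most 0.748% in the others of that number, while it was at 2.02% to 3.77% in all 8 libraries of replicate 1 and thus widely found there. C7913T, in ATP8, was at 2.09% (1.87% to 2.33%) in Thy_6C3 replicate 2 and at most 0.170% elsewhere. The highest G>A alleles of this kind were G12521A in ND5, at 2.86% in CD24_CD29 replicate 2, G7406A in COX2, at 1.80% in CD24_CD29 replicate 1, and G6785A in COX1, at 1.60% in Thy_6C3 replicate 2.

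Along the genome both changes were lower in the control region than in the rest. C>T in the control region (MT:15423-16299, 219 sites) had 4.06 ± 0.541 per 10000, against 13.1 ± 0.993 over the rest, and G>A (104 sites) had 2.86 ± 0.534, against 8.89 ± 0.753 (SD, n = 16). The log2 differences were -1.69 and -1.65, below 0 in 16 of 16 libraries each (adjusted exact permutation p = 4.58e-05 over 6, two-sided). With alleles under 1% the levels were 3.60 in the control region and 9.85 over the rest for C>T, and 2.71 and 7.47 for G>A. Mean coverage was 25034 reads in the control region and 26003 over the rest. The gap taken as the light-strand origin (MT:5160-5191) holds 7 reference cytosines and 7 guanines, with a C>T level of 1.65 ± 0.551 per 10000 and a G>A level, mostly from G5171A, of 29.2 ± 23.4 (SD, n = 16), with means of 12.7 in replicate 2 and 45.6 in replicate 1.

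The arcs differed for C>T. Its level was 13.5 ± 1.04 per 10000 in the major arc (MT:5192-15422), against 12.2 ± 1.01 in the minor arc (MT:1-5159), a log2 difference of 0.14 ± 0.067 (SD, n = 16) above 0 in 16 of 16 libraries (adjusted exact permutation p = 4.58e-05), at 0.09 in replicate 2 and 0.19 in replicate 1. G>A had 8.42 ± 0.545 per 10000 in the major arc, against 9.47 ± 1.51 in the minor arc (log2 -0.15, below 0 in 10 of 16, adjusted exact permutation p = 0.0292). That G>A difference belonged to replicate 1, with 8.24 against 10.7 per 10000; in replicate 2 it was 8.61 against 8.24. It was -0.01 with alleles under 1% (adjusted exact permutation p = 0.690), and G3079A lies in the minor arc. The call was lost without any single replicate 1 library other than CD24. Mean coverage was 28621 reads in the major and 20825 in the minor arc, and its part in these differences was not tested.

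Within the major arc, split at position 10307, C>T was level while G>A fell toward the control region. C>T had 13.5 ± 1.05 per 10000 on the side of the control region and 13.4 ± 1.16 on the side of the light-strand origin (log2 0.01, adjusted exact permutation p = 0.531; 0.06 in replicate 2 and -0.03 in replicate 1). G>A had 7.35 ± 0.521 per 10000 on the side of the control region, against 9.27 ± 0.683 on the side of the light-strand origin, a log2 difference of -0.34 ± 0.095 below 0 in 16 of 16 libraries (adjusted exact permutation p = 4.58e-05). The ratio of the C>T to the G>A mean was accordingly 1.84 on the side of the control region, 1.45 on the side of the light-strand origin, 1.29 in the minor arc and 1.42 in the control region, and 1.51, 1.31, 1.17 and 1.33 with alleles under 1%. The C>T difference between the sides turned to -0.07 with alleles under 1% (adjusted exact permutation p = 0.000110).

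In windows of 500 bases, C>T exceeded G>A in 28 of 33 windows, and in 30 of 33 with alleles under 1%. The highest C>T window was MT:14001-14500 at 19.9 ± 3.91 per 10000, which holds C14024T, and the lowest was MT:15501-16000 in the control region at 3.77 ± 0.914. For G>A the highest was MT:3001-3500 at 21.4 per 10000, which holds G3079A and had 7.50 with alleles under 1%, and the lowest was again MT:15501-16000 at 1.91. The last window of the control region, MT:16001-16299, had a G>A level of 6.22 and a C>T level of 4.74. With alleles under 1%, the 30 whole windows before the control region spanned 6.97 to 11.3 per 10000 for C>T and 5.66 to 8.93 for G>A. As a description over these 30 windows, coverage and the level under 1% had a Spearman rho of 0.335 for C>T and -0.428 for G>A.

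**Figure D5:**
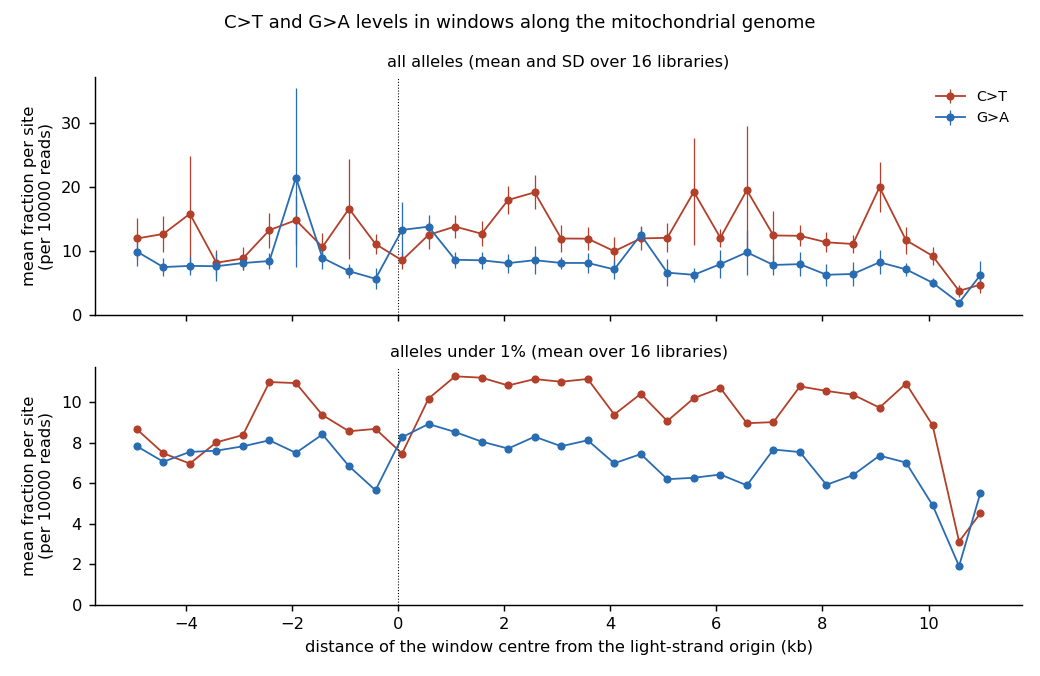
Mean C>T (red) and G>A (blue) fraction per site in windows of 500 bases against distance from the light-strand origin in kb, for all alleles with the SD over 16 libraries (top) and for alleles under 1% (bottom). C>T lies above G>A in 28 of 33 windows (top) and 30 of 33 (bottom). Both are lowest in MT:15501-16000, near the right end, while G>A lies above C>T in the last window (6.22 against 4.74, top).

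By kind of sequence, protein-coding genes had 13.7 ± 1.06 C>T and 9.15 ± 0.717 G>A per 10000, tRNA genes 12.1 ± 2.17 and 7.93 ± 1.11, and ribosomal RNA genes 10.1 ± 1.05 and 8.23 ± 1.04 (SD, n = 16). With alleles under 1% the C>T levels were 10.3, 8.51 and 8.16 in that order. Over codon positions 1, 2 and 3 of genes coded on the reference strand, C>T was at 10.8, 15.4 and 13.7 per 10000 and G>A at 7.59, 11.2 and 12.1. Position 1 was lowest for both changes, also with alleles under 1% (C>T 8.82, 11.4 and 10.5; G>A 6.81, 8.23 and 9.998). In ND6, which holds C14024T, the levels were 16.4 ± 2.13 for C>T over 144 sites and 5.89 ± 1.61 for G>A over 29 sites. With alleles under 1% they were 10.3 and 5.89, the C>T level being near that of all protein-coding genes. These classes differ in base surroundings and place, and the differences between them were not tested.

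The C>T level differed between the sorted subsets. Subsets held 91.1% of its variance on the log2 scale (exact permutation test in which the 16 libraries were paired in every possible way, one-sided, p = 0.00233, adjusted p = 0.00933 over 4 measures). Thy had 13.6 and 14.1 per 10000 in replicates 1 and 2, Thy_6C3 13.5 and 13.9, CD29 13.1 and 13.4, CD24_CD29 12.1 and 13.1, 6C3 12.6 and 12.2, CD45 12.5 and 11.6, CD24 11.5 and 11.5, and CD105 11.5 and 11.3. Both libraries of Thy, Thy_6C3 and CD29 were above both of 6C3, CD45, CD24 and CD105, while neighbours in this order overlapped or lay within 0.2 of each other. The value was 89.1% without both Thy libraries (adjusted exact permutation p = 0.0288).

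For G>A, subsets held 56.9% of the variance (adjusted exact permutation p = 0.394). With alleles under 1% they held 92.2% (adjusted exact permutation p = 0.00283), with Thy at 7.91 and 8.48 per 10000 and CD24_CD29 at 5.94 and 5.98 as the highest and lowest. The log2 ratio of C>T to G>A gave 16.8% (adjusted exact permutation p = 0.951), which did not pass the threshold. The pairings do not use the replicate number. In each subset the G>A level was higher in replicate 1 and the ratio was higher in replicate 2. That gap counts as variance within subsets, so 56.9% and 16.8% cannot show whether subsets differ in G>A level or ratio. The share that chance pairings would give is not stated here. C>A, whose strand ratio was near 1, moved with the C>T order in part: it was 32.3 and 54.9 per 10000 in Thy, 32.5 and 32.8 in Thy_6C3 and 34.7 and 33.1 in CD24_CD29, but 29.1 and 27.8 in CD29, 26.6 and 27.5 in 6C3, 29.9 and 28.1 in CD45, 26.9 and 25.4 in CD24 and 29.5 and 26.7 in CD105. Its part in the C>T differences was not tested.

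For the number of C>T and G>A alleles at 1% or more, subsets held 82.5% of the variance (adjusted exact permutation p = 0.0483). It was 83 and 117 in CD24_CD29, 41 and 85 in Thy_6C3, 42 and 45 in Thy, 29 and 52 in CD29, 32 and 29 in CD45, 37 and 25 in CD24, 29 and 23 in 6C3, and 29 and 22 in CD105. CD24_CD29 was highest in both replicates, while its level of alleles under 1% was the lowest, at 7.84 and 7.48 per 10000 for C>T. Over all changes CD24_CD29 held 280 and 416 counted alleles, against 140.5 in the median of 16 libraries. C>T and G>A were 29.6% and 28.1% of these, against a median of 26.1%. The high number in CD24_CD29 was thus not particular to C>T and G>A. Its mean coverage was 13534 and 6569 reads, the lowest of each replicate. The call was lost without most single libraries and held without either library of Thy_6C3 or CD29, with the largest adjusted exact permutation p of 0.186 without CD24_CD29 replicate 2.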

How the data were processed

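The authors deposited raw whole-number counts per library, one table of coverage at each mitochondrial position and another of reads with each base other than the reference. BWA 0.7.17, cutadapt 2.10 and bcl2fastq 2.20 are named, with builds GRCm38 and mm10, per the submitters' processing notes. How reads were filtered, whether duplicates were removed and how nuclear mitochondrial copies were treated is not given in the sources used here, and each could change a low fraction.

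Fractions were counts over coverage. A level was the mean fraction over sites of the reference base, and an allele was counted at 1% or more with at least 5 counts. G>A surroundings were read on the complementary strand. Genes came from RefSeq (GRCm38.p6). One log2 value per library was tested against 0 by all 65536 sign flips, and subsets by all ways to pair the 16 libraries, with Benjamini-Hochberg adjustment within each family and a threshold of 0.05; the steps were tested on simulated data. Alternatives were pooled counts, alleles under 1%, the share of sites at 0.1% or more, a coverage minimum of 5000, linear ends removed, other bin limits, each replicate number alone, left-out libraries and the replicate block. Equal triplet weights and removal of the control region were added after seeing the data.

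Same-numbered libraries deviated together in 28 of 28 pairs of subsets (correlations of 0.525 to 0.949 over 325 alleles), so they are not independent. The main tests did not model this. The sign flips and the pairings of libraries do not use the number, and the replicate block, which in the sign-flip tests averages the libraries of a subset, does not remove alleles shared by same-numbered libraries. Each number alone was therefore also given. The alleles, lists and tests were chosen with earlier results of these data known. Named alleles were, for each change, the 5 highest means of each number, those counted in all 16 libraries, and the 3 highest counted in 1 library of a number. Tools were matplotlib 3.10.9, pandas 2.3.3, scipy 1.17.1, numpy 2.4.6 and Python 3.11.15.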

Additional observations from a re-analysis of the deposited data

Results flagged for a closer look

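The C>T level differed between the sorted subsets, which held 91.1% of its variance (adjusted exact permutation p = 0.00933, one-sided, 2 libraries per subset). For the number of C>T and G>A alleles at 1% or more, subsets held 82.5% of the variance (adjusted exact permutation p = 0.0483), a call that was lost without any single library other than those of Thy_6C3 and CD29 (adjusted exact permutation p up to 0.186, without CD24_CD29 replicate 2). Counted alleles over all changes were also many in CD24_CD29, at 280 and 416, against 140.5 in the median library. Groups of 2 libraries are too small to look for a library that lies far from its group.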

How the results depend on the processing

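Of 36 results under 32 settings, 857 values counted as the same, 8 newly passed the threshold, 41 no longer passed and 11 turned round. The same means an unchanged side of the threshold, and an unchanged direction only where either value passed. Results that passed in neither setting could change direction and still count as the same. Shares of variance have no direction, and the count of neighbouring bases past the threshold was the same within 1.5 times. With alleles under 1%, the difference from the T>C pair was -0.060, C>T with cytosine before 0.0086, G>A with adenine before 0.075, the C>T difference between the sides of the major arc -0.068, the G>A difference between arcs -0.0099, and the share of G>A variance between subsets 92.2%. For the share of sites at 0.1% or more these were -0.040, 0.013, 0.043, -0.10, -0.024 and 90.7%. The lowest fraction bin gave 0.12 with limits of 0.2% and 2%, -0.047 with a coverage minimum of 5000, -0.036 without both Thy libraries, -0.063 in replicate 1 alone, -0.031 in replicate 2 alone and -0.047 with the replicate block. In replicate 1 alone G>A with guanine before was 0.16 and the difference from the T>C pair 0.058; in replicate 2 alone the G>A difference between arcs was 0.069 and the C>T difference between the sides 0.060. With the control region added to the minor arc, the G>A difference between arcs was -0.020. The number of alleles gave 79.7% with the coverage minimum and 82.5% without both Thy libraries. The causes were not tested.

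Leaving out single libraries gave -0.058 to -0.037 for the lowest bin, -0.18 to -0.14 for the G>A arcs (the call was lost without any replicate 1 library but CD24) and 75.9% to 89.7% for the number of alleles. The replicate block changed no call other than the lowest bin and G>A with guanine before. Fractions near 0.0457% lie at the depth limit of the shallowest library.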
